A study of Homo sapiens with 6 samples.

Results

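HEYA8, an established human ovarian cancer cell line, was examined for 9 genes best known from the lining of blood vessels: CDH5, TIE1, TEK, ROBO4, ESAM, PECAM1, VWF, ENG and EGFL7. The genes were chosen by name with their levels in these cells already known, and 8 of them were found among the 20061 rows of the deposited expression table. PECAM1 was not analysed here. Of the 8 genes, 6 had been tested by the authors for a difference between groups. The other 2, VWF and TEK, were marked as not tested.

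Both groups carried a stably expressed lentiviral short hairpin RNA (shRNA) and were kept in puromycin, with 3 samples in each. The control hairpin targets luciferase, which human cells do not have (shLuciferase), and the other targets the messenger RNA of the transcription factor ETS1 (shETS1). The study used a single cell line, and neither the number of ETS1 hairpins nor the independence of the 3 cultures of a group is given, so the authors' test may measure technical spread only. The table gives 1 FPKM value (sequenced fragments per length of transcript and per size of library) per gene and group, so no spread between samples could be computed and the depth per sample is unknown. ETS1 itself measured 41.4 FPKM under the luciferase hairpin against 17.9 FPKM under its own, 56.9% lower (q = 0.00964 in the authors' deposited table). Of 8 markers of ovarian carcinoma, 7 had been tested, with 0 called, 1 higher (MSLN, 17.9 and 26.5 FPKM) and 0 lower at an unadjusted p under 0.05, 5 below 0 and a median log2 ratio of -0.19. The keratins were the most abundant, and their log2 ratios were of the size seen below for TIE1, ENG and EGFL7: KRT18 was at 2044 and 1498 FPKM (-0.45), KRT8 at 1913 and 1288 FPKM (-0.57) and KRT7 at 1187 and 910 FPKM (-0.38). KRT18 and KRT8 share a deposited locus, so the split of reads between the pair is uncertain. PAX8 stood at 79.7 and 76.8 FPKM and WT1 at 3.58 and 3.13 FPKM, whereas MUC16 was at 0.000625 FPKM in shLuciferase and listed at 0 in shETS1.

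Endothelial cells are held together by VE-cadherin, the product of CDH5, and by adhesion molecules of the immunoglobulin family such as ESAM and PECAM1. Their growth and quiescence are tuned by the Tie receptor kinases TIE1 and TEK, of which TEK binds the angiopoietins, by the guidance receptor ROBO4, and by endoglin (ENG), a co-receptor for BMP9 and TGF-beta. VWF is a clotting protein stored in endothelial granules and in platelets, and EGFL7 is a secreted protein of the vessel wall. ETS family factors bind DNA around a GGAA core and are long known as regulators of endothelial genes.

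The genes differed in level over more than 4 orders of magnitude in the same cells. On the FPKM scale, which is per transcript length, the order in shLuciferase was ENG at 327 FPKM, TIE1 at 164 FPKM, EGFL7 at 97.4 FPKM, ROBO4 and CDH5 close together at 21.0 and 17.6 FPKM, ESAM at 2.42 FPKM, VWF at 0.238 FPKM and TEK at 0.0126 FPKM. ENG held rank 301 of all 20061 rows and TIE1 rank 615, and their levels exceeded those of 98.2% and 96.3% of the rows with a value above 0. The level of TIE1 was 13014 times that of TEK, its only relative in the Tie receptor family, although at so low a value TEK may rest on very few fragments. In shETS1 the order was the same. No other row of the table carried the same pair of values as any of these genes, and 1 of the 8, ESAM, shared its locus with another row. Without values per sample, it cannot be said whether neighbours in this order, such as ROBO4 and CDH5 in the control, differ beyond their spread.

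**Figure D1:**
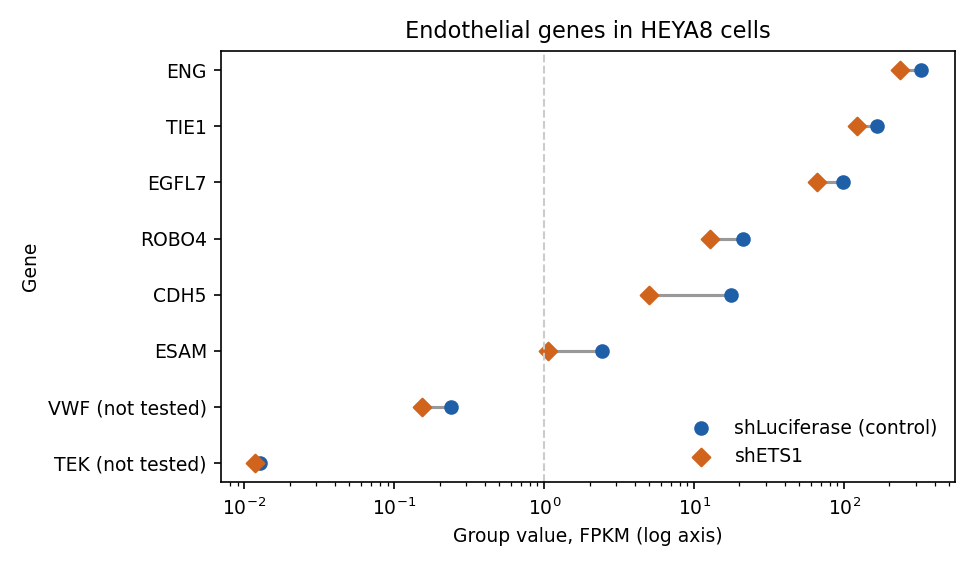
Group values in FPKM (horizontal log axis) of the 8 listed genes (vertical axis), with blue circles for shLuciferase and orange diamonds for shETS1, joined by a grey line; each point is the authors' value for 3 samples, with no error available. ENG lies highest at 327 and 234 FPKM, VWF and TEK lie below the dashed line at 1 FPKM, and the widest gap is that of CDH5, 17.6 against 5.00 FPKM.

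Promoters are shown because ETS factors act through short DNA sites, and whether any site here is used was not tested. RefSeq promoter sequences (build GRCh38.p14) were at hand for 5 of the 9 genes: TIE1, TEK, ROBO4, ENG and EGFL7. The entries of CDH5, ESAM, PECAM1 and VWF were missing, so CDH5 and ESAM, which had the lowest ratios below, are not covered. The 250 bases before the start of transcription are given 5′ to 3′ on the gene's strand, with capitals marking AGGAAG or its reverse complement CTTCCT, an extended form of the ETS core.
TIE1, chr1:43300732-43300981, plus strand: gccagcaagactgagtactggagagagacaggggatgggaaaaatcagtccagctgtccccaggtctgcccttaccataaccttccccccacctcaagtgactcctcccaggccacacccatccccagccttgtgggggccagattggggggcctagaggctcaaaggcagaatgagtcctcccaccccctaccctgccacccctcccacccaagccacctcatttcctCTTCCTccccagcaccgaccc
ROBO4, chr11:124897866-124898115, minus strand: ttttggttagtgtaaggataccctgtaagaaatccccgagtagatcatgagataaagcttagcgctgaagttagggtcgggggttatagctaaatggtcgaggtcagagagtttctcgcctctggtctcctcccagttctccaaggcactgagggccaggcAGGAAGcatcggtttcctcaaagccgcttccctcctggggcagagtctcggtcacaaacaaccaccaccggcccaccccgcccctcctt
ENG, chr9:127854659-127854908, minus strand: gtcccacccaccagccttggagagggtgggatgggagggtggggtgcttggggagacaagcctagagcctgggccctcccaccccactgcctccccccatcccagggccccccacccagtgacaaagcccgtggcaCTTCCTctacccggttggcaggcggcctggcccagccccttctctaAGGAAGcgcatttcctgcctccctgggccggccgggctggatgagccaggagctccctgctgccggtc
EGFL7, second of its starts, chr9:136662666-136662915, plus strand: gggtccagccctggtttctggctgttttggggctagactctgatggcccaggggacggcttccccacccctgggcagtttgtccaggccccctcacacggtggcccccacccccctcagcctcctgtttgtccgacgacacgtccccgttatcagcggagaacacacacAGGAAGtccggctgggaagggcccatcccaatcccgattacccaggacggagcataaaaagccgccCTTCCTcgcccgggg
TEK, first of its starts, chr9:27108975-27109224, plus strand: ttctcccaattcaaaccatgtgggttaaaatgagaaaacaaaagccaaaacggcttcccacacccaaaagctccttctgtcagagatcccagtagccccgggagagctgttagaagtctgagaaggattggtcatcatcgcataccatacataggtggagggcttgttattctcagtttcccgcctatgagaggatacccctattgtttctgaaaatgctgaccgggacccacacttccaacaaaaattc

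AGGAAG occurred once before TIE1, 21 to 16 bases from its start on the opposite strand. It occurred once before ROBO4, 89 to 84 bases from the start. ENG had 2 matches, at 114 to 109 and 68 to 63 bases, and the EGFL7 window shown had 2, at 81 to 76 and 15 to 10 bases. The other annotated start of EGFL7 had 1 match, at 56 to 51 bases. Neither of the 2 annotated starts of TEK had a match in this window. Of 35116 promoter windows of the same length, 28.7% held the motif on either strand. The bare core GGAA, which AGGAAG contains, was in 92.7% of all windows, with a median of 3 matches. It occurred 4 times before TIE1, 3 times before ROBO4, 3 times before ENG, 4 times in the EGFL7 window shown and 3 times in the TEK window shown. In the windows not shown it occurred 1 time before the first start of EGFL7 and 6 times before the second start of TEK. The form CCGGAA was in 14.5% of all windows and in none of the 7 windows of these 5 genes. The motifs were picked with the sequences in view, and a match is a description of the letters, not of binding.

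Comparison of the groups asks how the transcripts of these genes stand when ETS1 is lowered. CDH5 fell, and it was the only gene of the 6 tested that passed the authors' test at a q of 0.05. That is 1 of 6, where 0.268% of all 11952 tested rows were called lower and 0.812% in either direction. At a q-value of 0.10 the count was again 1, beside 0.41% of tested rows, and at an unadjusted p under 0.05 it was 4, beside 3.04%. Since this comparison was known when the genes were chosen, the count describes them and tests nothing. All 8 listed genes had a lower FPKM value in shETS1 than in shLuciferase, and among the 6 tested ones the level was between 26.0% and 71.6% lower. Over all tested rows, 46.8% were lower in shETS1. The median log2 ratio of the 6 tested genes was -0.64, beside 0.02 for all tested rows.

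Of the adhesion molecules, CDH5 (chr16:66400525-66438689, hg19) measured 17.6 FPKM in shLuciferase against 5.00 FPKM in shETS1. The log2 ratio was -1.82, a level 3.52-fold lower (q = 0.00964, the smallest value in the authors' deposited table). Other rows, ETS1 and SYNPO among them, share this smallest q-value. As few as 8 of the 11951 tested rows with a finite ratio, CDH5 among them, had a ratio this low or lower, and among the 25 genes called lower at a mean of at least 1 FPKM it ranked second. In bulk RNA, fewer cells with the transcript and less transcript per cell cannot be told apart. No other row overlapped the locus of CDH5, and its nearest listed neighbours, CDH11 and BEAN1, were listed at 0 FPKM and 0.0150 FPKM in shLuciferase. By distance in the pair of log2(FPKM + 1) group values, the tested genes most like CDH5 were SYNPO at 16.4 and 6.56 FPKM, TMEM183A at 15.0 and 7.51 FPKM and TMEM104 at 13.3 and 6.93 FPKM. Of these 3, SYNPO alone was called.

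ESAM (chr11:124617370-124632223, hg19) measured 2.42 FPKM in shLuciferase against 1.06 FPKM in shETS1, a log2 ratio of -1.20. It was not called (p = 0.00215, q = 0.138 in the authors' deposited table). Its deposited locus is identical to that of VSIG2, which was at 0.650 and 0.297 FPKM with a log2 ratio of -1.13, so the split of reads between the pair is uncertain. The locus of NRGN, which ends 267 bases before it, was at 57.2 and 46.2 FPKM. The log2 ratio of ESAM shrank to -0.73 when 1 FPKM was added to each level.

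Of the receptors, ROBO4 (chr11:124754114-124767831, hg19) stood at 21.0 and 12.8 FPKM, a level 39.1% lower in shETS1. Its log2 ratio was -0.71 and it was not called (p = 0.00485, q = 0.217 in the authors' deposited table). The neighbouring gene ROBO3, of the same receptor family, lies 2743 bases away and had the other sign, at 8.66 and 10.1 FPKM. TIE1 (chr1:43766566-43788781, hg19) stood at 164 and 122 FPKM, a log2 ratio of -0.43 (p = 0.0861, q = 0.852 in the authors' deposited table). TEK (chr9:27109147-27230172, hg19) was at 0.0126 and 0.0117 FPKM, too low to have been tested. The tested genes most like TIE1 in the pair of log2(FPKM + 1) values were DAP, CHCHD10 and EPN1, at 160, 172 and 158 FPKM in shLuciferase and 123, 123 and 125 FPKM in shETS1, none of them called. ENG (chr9:130577291-130617047, hg19) stood at 327 and 234 FPKM, a log2 ratio of -0.49 (p = 0.0631, q = 0.788 in the authors' deposited table). Its neighbours FPGS and AK1 were at 88.5 and 49.9 FPKM in shLuciferase and 79.7 and 49.0 FPKM in shETS1.

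Of the secreted proteins, EGFL7 (chr9:139553308-139567130, hg19) stood at 97.4 and 65.7 FPKM, a level 32.6% lower in shETS1. Its log2 ratio was -0.57 and it was not called (p = 0.0176, q = 0.462 in the authors' deposited table). AGPAT2, which begins 464 bases beyond it, was at 130 and 114 FPKM. NOTCH1, the nearest listed locus on the other side at 113069 bases, was at 10.8 and 6.39 FPKM, a log2 ratio of -0.76. No strand-marking step is described, so overlapping reads of such close neighbours would not be told apart. VWF (chr12:6058040-6233836, hg19) was at 0.238 and 0.153 FPKM and was not tested. An intron of EGFL7 holds the endothelial microRNA gene MIR126, which was not analysed here.

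The share of tested rows with a ratio at least as low as that of the gene was 0.284% for ESAM, 1.80% for ROBO4, 3.32% for EGFL7, 5.06% for ENG and 6.47% for TIE1. Among tested rows with a mean within 2-fold of the gene's, it was 0.266% for ESAM, 1.16% for ROBO4, 1.17% for EGFL7, 2.05% for ENG and 3.83% for TIE1. The genes were chosen with their values known, so the shares only describe them. For the 3 most abundant genes the differences were smaller than those called lower at such levels. Among 1880 tested rows whose mean reached 50 FPKM, 2 were called lower, and the smaller of those changes was 1.87-fold, against 1.48-fold for EGFL7, 1.40-fold for ENG and 1.35-fold for TIE1. A q-value above the threshold does not show that their levels were alike. The ratio of ENG to CDH5 was 18.6 in shLuciferase and 46.7 in shETS1, with no error available for either.

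**Figure D2:**
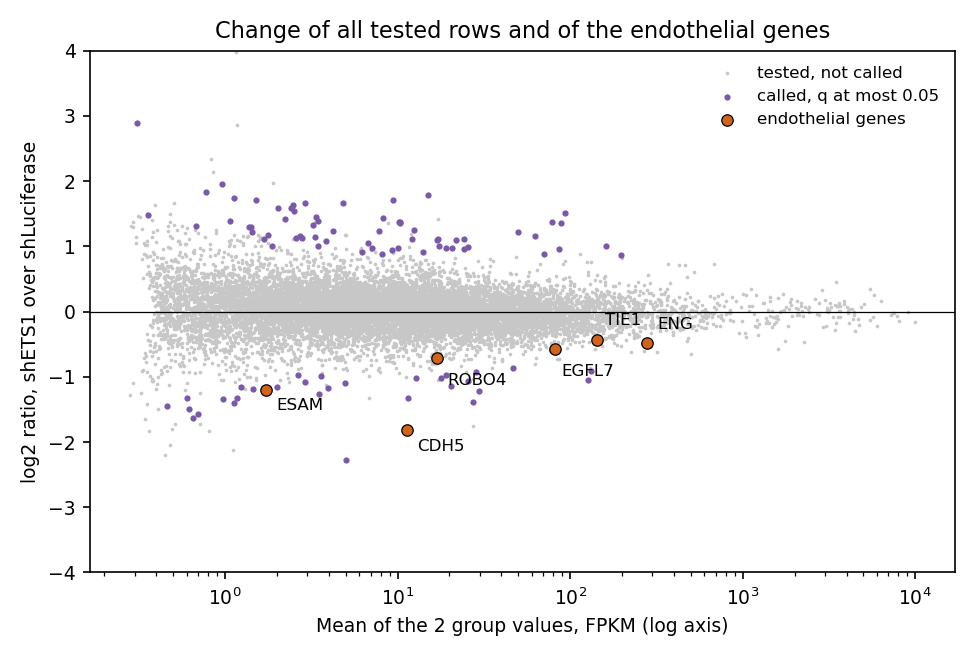
The log2 ratio of shETS1 over shLuciferase (vertical axis) against the mean of the 2 group values in FPKM (horizontal log axis) for tested rows; grey points were not called, purple points were called at a q-value of 0.05, and orange points are the 6 tested endothelial genes. CDH5, at -1.82, lies below nearly all rows of its level, and 2 tested rows lie outside the axes.

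Fold changes in this table are related to base composition, and 7 of the 8 listed endothelial transcripts lay above the median GC content. Across 9681 tested genes with a GC value and a mean of 1 FPKM or more, Spearman's rho between transcript GC content and log2 ratio was -0.47. It is across genes, which are not independent replicates and share the libraries. GC content was 54.9% for CDH5, 57.5% for ESAM, 59.1% for ROBO4, 60.8% for TIE1, 63.0% for ENG and 67.5% for EGFL7, beside a median of 50.2%. Of the untested genes, VWF had 58.5% and TEK, the exception, 45.1%. In the tenth of genes with the highest GC content the median log2 ratio was -0.16. With a cubic trend on GC removed, the log2 ratio of CDH5 was -1.75, that of ESAM -1.10 and that of ROBO4 -0.61. The abundant genes lay closer to the trend, with -0.42 for EGFL7, -0.35 for ENG and -0.31 for TIE1.

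**Figure D3:**
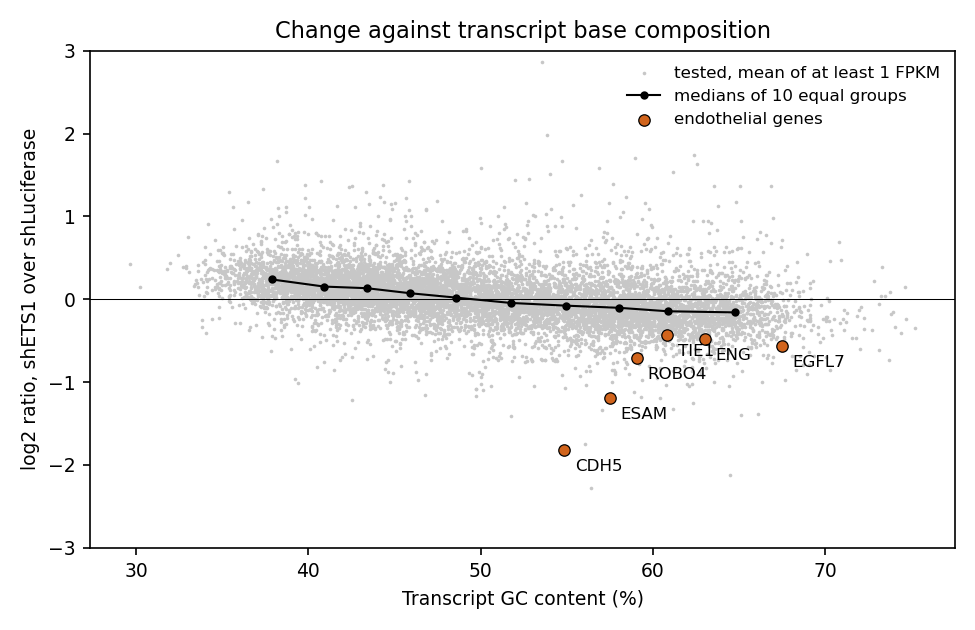
The log2 ratio of shETS1 over shLuciferase (vertical axis) against transcript GC content in percent (horizontal axis); grey points are tested genes with a mean of at least 1 FPKM, black points and line the medians of 10 groups of equal size by GC, and orange points the 6 tested endothelial genes. The medians go from 0.24 to -0.16 with rising GC, and each of the 6 genes lies below the line.

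**Figure D4:**
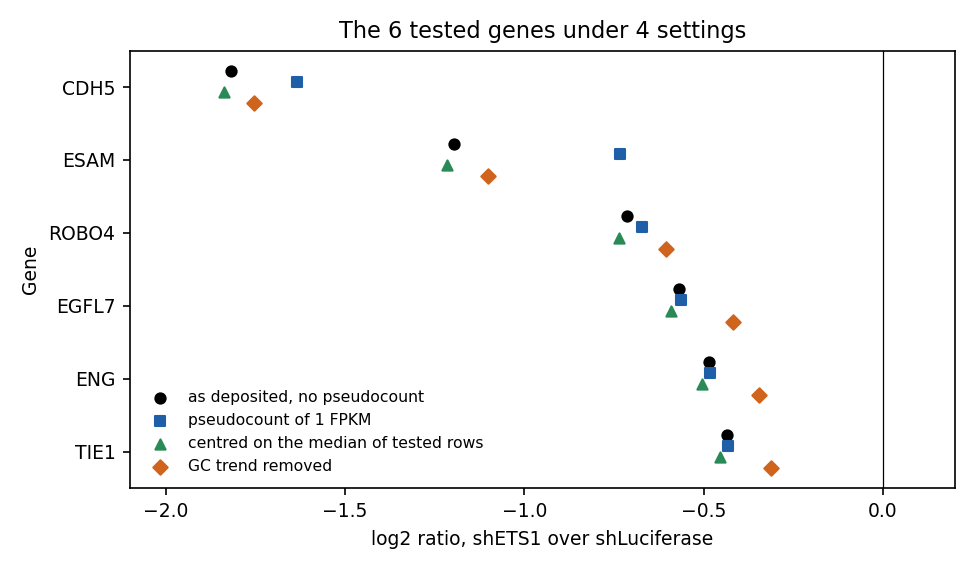
The log2 ratio of shETS1 over shLuciferase (horizontal axis) of each tested endothelial gene (vertical axis) under 4 settings: as deposited (black circles), with 1 FPKM added to both levels (blue squares), centred on the median of tested rows (green triangles) and with the GC trend removed (orange diamonds). All points lie below 0, which only removal of the GC trend could have changed. The largest move is that of ESAM, from -1.20 to -0.73 with 1 FPKM added.

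Partners of these proteins were followed on 7 lists holding 83 genes, of which 52 had been tested. None of them was called at q = 0.05 in the authors' deposited table, whose columns are those of a Cuffdiff comparison. At an unadjusted p under 0.05, 1 was higher and 4 were lower, beside 3.9% and 3.04% of all tested rows, and 23 of the 52 had a log2 ratio below 0, beside 46.8%.

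Of 12 tested junction partners of VE-cadherin, 0 were called and 0 had an unadjusted p under 0.05, with 8 below 0 and a median log2 ratio of -0.10. The catenin genes that link cadherins to actin were abundant: CTNNA1 stood at 150 and 127 FPKM and CTNNB1 at 105 and 98.0 FPKM. PVRL2, a nectin, was at 73.1 and 79.1 FPKM, and the small GTPase gene RAP1B at 62.9 and 69.2 FPKM. JUP, which encodes plakoglobin, was at 0.0315 FPKM in shLuciferase and not tested. Whether other rows share the deposited locus of JUP (chr17:39679869-39942964, hg19), or that of ACTA2 below (chr10:90640026-90775542, hg19), was not looked up. The levels of JUP and ACTA2 are therefore less certain. PTPRB, the endothelial phosphatase of VE-cadherin and TEK, was at 0.741 and 0.672 FPKM. Here and for all lists, PAX8, WT1, MUC16 and MSLN included, genes named beyond the 4 most abundant were singled out after their values were seen.

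Of 10 genes of Tie receptor signalling 4 were tested and 0 had an unadjusted p under 0.05. The ligands of TEK were low, with ANGPT1 at 0.192 and 0.341 FPKM, ANGPT2 at 0.0633 and 0.0928 FPKM and ANGPT4 at 0.0271 and 0.0763 FPKM, none of them tested. Among 8 tested genes around ROBO4, 1 was higher and 1 lower at an unadjusted p under 0.05. SLIT2, a secreted ligand of Robo receptors, was at 0.787 and 1.67 FPKM (q = 0.0670 in the authors' deposited table). GIT1, a scaffold for the paxillin pathway, was at 78.8 and 48.0 FPKM (q = 0.176 in the same table), and paxillin itself (PXN) at 138 and 138 FPKM. Among 12 tested genes of the BMP9 and endoglin pathway 3 had a ratio below 0. ACVRL1, the endothelial type I receptor that works with endoglin, was at 1.79 and 0.894 FPKM (q = 0.152 in the authors' deposited table), and the BMP target ID1 at 97.9 and 102 FPKM. GDF2, which encodes BMP9, was listed at 0 in both groups. Among 6 tested interactors of EGFL7, 2 were lower and 0 higher at an unadjusted p under 0.05, both of them Notch receptor genes: NOTCH1, given above, and NOTCH2, at 15.2 and 10.7 FPKM. Neither NOTCH1 nor NOTCH2 was called (q = 0.122 and 0.678 in the authors' deposited table), and NOTCH4, the endothelial member, was at 0.358 FPKM in shLuciferase. The row of NOTCH4 is placed on an alternative sequence of chromosome 6 (6_ssto_hap7), so its level is less certain. None of 6 tested junctional adhesion genes and none of 5 tested genes of VWF handling had an unadjusted p under 0.05. Among them, ICAM2 was at 37.8 and 32.0 FPKM and F11R at 4.26 and 3.21 FPKM. The VWF receptor gene GP1BA was at 0.400 and 0.329 FPKM, and the VWF-processing protease FURIN at 23.6 and 21.0 FPKM.

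Other endothelial genes ranged from listed at 0 to 277 FPKM in shLuciferase. Of 42 other endothelial markers, 26 had not been tested and reached at most 0.319 FPKM in either group. Among these, the VEGF receptor KDR was at 0.0710 and 0.108 FPKM, CLDN5 at 0.295 and 0.271 FPKM, and SELE and CLEC14A were listed at 0 in both groups. The 16 tested ones had a median log2 ratio of -0.01, with 8 below 0, and 2 higher and 1 lower at an unadjusted p under 0.05. TM4SF1 was at 277 and 462 FPKM, ESM1 at 175 and 176 FPKM, CAV1 at 173 and 192 FPKM and ECSCR, an endothelial surface protein, at 164 and 138 FPKM. The receptor gene EPHB4 was at 7.71 and 4.99 FPKM and its ligand gene EFNB2 at 3.76 and 6.04 FPKM, neither of them called (q = 0.350 and 0.263 in the authors' deposited table). Of 23 endothelial transcription factors, 18 were tested, with 9 below 0, a median of -0.05, and 1 higher and 2 lower at an unadjusted p under 0.05. KLF2 stood highest at 44.1 and 46.1 FPKM, followed by the ETS member ELK3 at 26.5 and 24.7 FPKM, NR2F2 at 22.9 and 25.7 FPKM and ETS2 at 9.09 and 11.7 FPKM. The ETS factor FLI1 was at 8.66 and 7.87 FPKM and ERG, an ETS factor of endothelial cells, at 0.762 and 0.618 FPKM. GATA2 was at 5.83 and 3.58 FPKM and SOX17 at 1.15 and 2.38 FPKM, neither of them called (q = 0.350 and 0.110 in the authors' deposited table).

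Most markers of leukocytes and platelets, cells that carry some of these transcripts, were below 1 FPKM or listed at 0. A listed 0 need not mean absence, since CD99, which most human cells express, was also listed at 0 in both groups. The row of CD99 is placed on chromosome Y, however, so this example may not carry over to rows on other chromosomes. Of 8 leukocyte markers 3 were listed at 0 in both groups, among them PTPRC and TYROBP, and the summed level was 3.73 FPKM in shLuciferase and 2.12 FPKM in shETS1. Most of that sum was LAPTM5, at 2.82 and 1.36 FPKM (q = 0.0827 in the authors' deposited table). The rows of LST1 and AIF1, also in the sum, are placed on the alternative sequence 6_ssto_hap7, so their low values are less certain. The 6 platelet and megakaryocyte markers summed to 0.867 and 0.860 FPKM, with PF4 and GP9 at 0 in both groups. Of 6 mural cell markers, PDGFRB, RGS5 and NOTCH3 were not tested and reached at most 0.218 FPKM in either group, while the tested ACTA2 was at 46.9 and 57.8 FPKM, MCAM at 22.0 and 21.3 FPKM and CSPG4 at 12.6 and 9.79 FPKM. The part of such cells in the differences above was not tested.

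**Figure D5:**
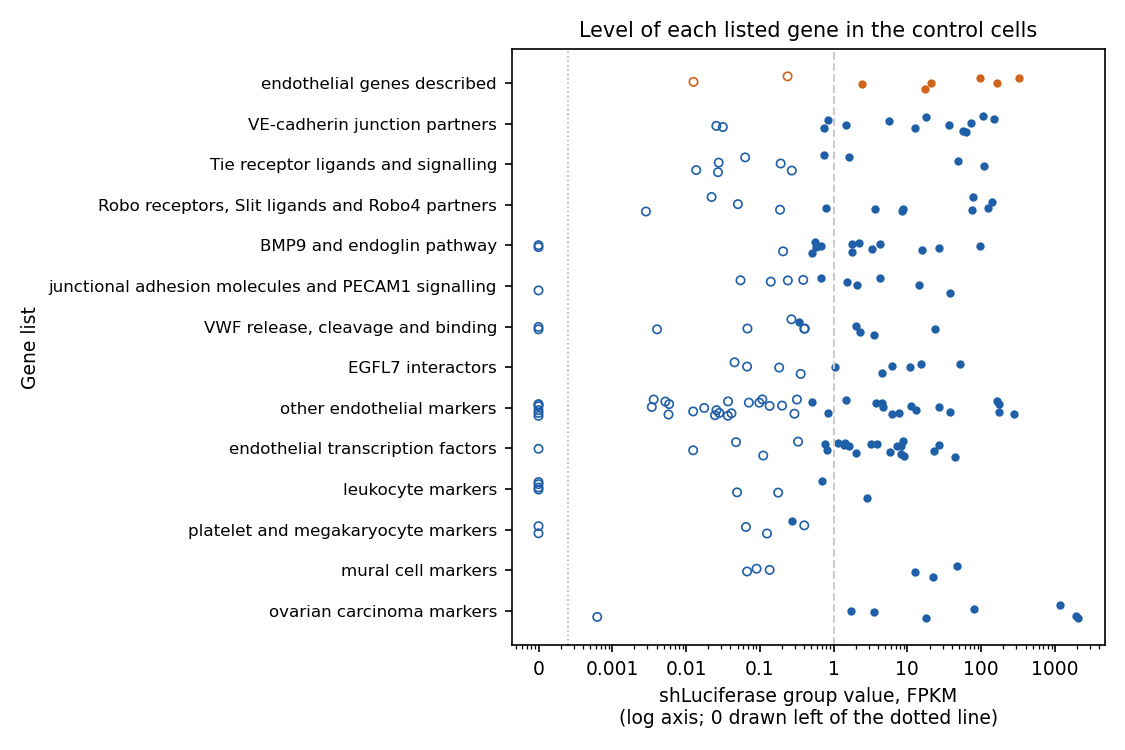
Level in shLuciferase in FPKM (horizontal log axis, with 0 drawn left of the dotted line) of each gene on the 14 lists (vertical axis); filled points had been tested by the authors and open points had not, the endothelial genes described are orange, and the vertical scatter within a list has no meaning. ENG, TIE1 and EGFL7 lie at 97.4 FPKM or above, as do 4 of the 42 genes listed as other endothelial markers (TM4SF1, ESM1, CAV1 and ECSCR). Of the same 42 genes, the 26 not tested lie at or below 0.319 FPKM. Leukocyte and platelet markers stay at or below 2.82 FPKM.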

How the data were processed

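Transcripts of HEYA8 cells with either hairpin were sequenced in 3 samples per group after poly(A) selection and random priming, per the labels' protocols. Cufflinks 2.1.1, TopHat2 2.0.7, SAMtools 0.1.18, Bowtie2 2.0.6 and build hg19 are named, without roles, per the submitters' processing notes. The annotation and the scaling between libraries were not given in the sources used here. The deposited table gives the authors' FPKM per gene and group, their log2 fold change, test statistic (a score, not used), p-value and q-value, per the file headers. In the deposited log2 column 629 cells hold an error text, so log2 ratios were computed here from the FPKM values; for the 8 genes they matched the deposited ones within 5.04e-06. No value per sample was used, so the tests designed for such values did not apply.

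Genes with a q-value of 0.05 or less in the deposited table were called. The genes and lists were chosen with earlier results of these data known. Named were the 9 genes, ETS1, rows sharing a locus, up to 4 abundant genes per list, the 3 genes nearest to CDH5 and TIE1, and others said in the text to be picked later; locus neighbours were added after their values were seen. Loci are those of the table, with 1 added to the start. GC content came from GENCODE 29 transcripts (longest coding sequence per symbol), found for 90.7% of tested genes with a mean of at least 1 FPKM. Removal of the GC trend was tried on simulated data with a linear trend, a form that the cubic fit contains. That trial checks the calculation only, not the shape of the real trend. Promoters came from RefSeq. Python 3.11.15, numpy 2.4.6, pandas 2.3.3 and scipy 1.17.1 were used.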

Additional observations from a re-analysis of the deposited data

How the results depend on the processing

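All 32 alternative values of the 8 genes' log2 ratios (1 or 0.1 FPKM added, centring on the median of tested rows, GC trend removed) kept their sign. Adding a constant to both levels cannot change a sign, nor could centring on 0.02 for ratios already below 0. Removal of the GC trend could in principle have done so, but its median was only -0.16 in the tenth of genes with the highest GC content. The ratio nearest 0 among tested genes was -0.43 (TIE1), so the kept signs say little. The largest move was that of VWF, from -0.64 to -0.10 with 1 FPKM added. None moved by 1.5-fold or more, a limit set here that says nothing of the spread between samples. At a q-value of 0.10 the number of genes called lower was again 1, where 0.41% of tested rows were. At an unadjusted p under 0.05 it was 4 (CDH5, ESAM, ROBO4 and EGFL7), where 3.04% of tested rows were lower. The median of the tested genes lay between -0.66 and -0.51 under 6 alternatives, with -0.57 without CDH5 and also without ESAM, whose locus is shared. No replicate could be left out. No paired analysis was possible because the deposited columns hold 1 value per group and carry no replicate number. Depth is unknown, and the ratios of VWF and TEK, at under 0.25 FPKM, carry little weight.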
